A study of Mus musculus with 6 samples.

Results

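The interleukin 1 family genes described here are 10 rows of a table of raw RNA-seq counts that lists 22905 gene symbols, chosen by name and not by their values: Il1a, Il1b, Il18 and Il33, which encode agonist cytokines, Il1rn, Il18bp and Il1r2, which encode an antagonist, a soluble inhibitor and a decoy receptor, and Il1r1, Il1rap and Il1rl1, which encode signalling receptor chains. RNA came from cells labelled primary hepatic stellate cells of mice with the genotype BucheKI/KI-Hep. Every animal was given CCl4 (carbon tetrachloride), which injures the liver and is a common fibrosis model, and carried the same genotype, so the groups differ in PBS (3 libraries) or DOX (3 libraries). Butyrylcholinesterase was over-expressed in hepatocytes in this series, and the question is which transcripts of the stellate preparation changed with it. The labels give no age, dose or duration for the animals, and groups with DOX but no introduced gene, or without CCl4, were not analysed here, so what DOX itself does and what the introduced gene does cannot be told apart. Nothing in the labels says that replicates came from separate animals, and the p-values then reflect only the spread among these libraries, which may be technical.

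Interleukin 1 alpha and interleukin 1 beta bind the receptor Il1r1, which recruits the accessory chain Il1rap and signals through the adaptor Myd88 to NF-kB. The product of Il1rn occupies Il1r1 without recruiting the accessory chain, and Il1r2 binds the cytokines but lacks the signalling domain, so both limit the response. Interleukin 18 is held by the soluble binding protein encoded by Il18bp, and interleukin 33 signals through Il1rl1 (also called ST2) together with Il1rap. In liver, macrophages are a known source of interleukin 1 beta and interleukin 18, and stromal and endothelial cells are known to carry Il1r1 and to make interleukin 33.

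Total counts were between 36220282 and 37707364 per library. Bche, the gene of the manipulation, stood at 0.415 ± 0.240 CPM (counts scaled to library size with TMM factors, mean ± SD, n = 3) in PBS, against 50.5 ± 43.4 CPM for the DOX libraries. The libraries did not hold stellate transcripts alone. Over the 6 libraries, the most abundant stellate and fibroblast marker, Dcn, had 353 to 762 CPM, the most abundant endothelial marker, Cdh5, 2001 to 2751 CPM, and the most abundant macrophage marker, Mpeg1, 990 to 2663 CPM. Col3a1, the next stellate and fibroblast marker by level, had 148 to 403 CPM, and Lrat, a stellate gene named after its values were seen, 1.125 to 3.51 CPM. The markers of that list differed widely in level. Among others named after their values were seen, Ecm1 had 109 to 261 CPM, Reln 37.8 to 111 CPM and Hand2 1.36 to 3.64 CPM. Macrophage markers moved with the groups, since all 18 had a positive log2 fold change, 14 did not overlap between groups, 4 were called higher and none was at 0 in any library. Of all genes tested, 16.9% did not overlap with DOX higher and 4.38% were called higher, which are the shares for the other marker lists too. The macrophage markers summed to 5134 to 7747 CPM in PBS and 9322 to 16675 CPM in DOX. Hepatocyte markers summed to 308 to 584 CPM in PBS and to 1232, 500.03 and 4090.1 CPM in DOX replicates 1, 2 and 3. All 14 had a positive log2 fold change, with a median of 2.60, and 4 did not overlap with DOX higher. None of them was called, although 12 had an edgeR unadjusted p under 0.05 (28.7% of all genes). Neutrophil markers, whose cells can also make interleukin 1 beta, moved too: 6 of 6 tested were positive and 3 were called higher. Their sum was 27.7 to 59.9 CPM in PBS and 114 to 154 CPM in DOX. Most of it was 1 gene, Csf3r, with 24.7 to 53.5 CPM in PBS and 85.9 to 144 CPM in DOX. Ly6g, Cxcr2 and Retnlg were at 0 in at least 1 library, so the sum says little about these markers. Called higher were also 3 of 7 tested dendritic and 1 of 7 cholangiocyte markers, and none of 3 B cell and 2 mast cell or basophil markers. In bulk RNA, fewer cells of a type and less RNA per cell cannot be told apart, and the part of these lists in the results below was not tested.

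The 5 promoters shown belong to the members that passed the test. Each run is the 250 bases before a RefSeq transcript start in GRCm38, written 5′ to 3′ on the strand of the gene, and capitals mark matches to the motifs searched.
Il1a, chr2:129309973-129310222, minus strand: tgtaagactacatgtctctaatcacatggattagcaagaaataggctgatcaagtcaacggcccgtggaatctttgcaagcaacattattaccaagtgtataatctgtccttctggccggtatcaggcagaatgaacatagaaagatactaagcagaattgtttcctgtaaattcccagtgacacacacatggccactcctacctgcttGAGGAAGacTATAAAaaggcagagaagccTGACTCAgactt
Il1b, chr2:129371140-129371389, minus strand: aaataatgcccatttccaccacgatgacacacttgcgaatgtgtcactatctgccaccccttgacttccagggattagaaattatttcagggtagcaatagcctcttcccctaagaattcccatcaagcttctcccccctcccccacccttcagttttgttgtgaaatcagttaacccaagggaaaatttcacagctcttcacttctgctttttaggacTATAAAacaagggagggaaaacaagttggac
Il18, chr9:50554450-50554699, plus strand: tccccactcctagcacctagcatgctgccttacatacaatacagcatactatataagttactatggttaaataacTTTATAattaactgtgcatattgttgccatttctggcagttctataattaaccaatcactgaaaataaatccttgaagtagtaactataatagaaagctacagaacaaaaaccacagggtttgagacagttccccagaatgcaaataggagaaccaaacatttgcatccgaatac
Il1rn, chr2:24345121-24345370, plus strand: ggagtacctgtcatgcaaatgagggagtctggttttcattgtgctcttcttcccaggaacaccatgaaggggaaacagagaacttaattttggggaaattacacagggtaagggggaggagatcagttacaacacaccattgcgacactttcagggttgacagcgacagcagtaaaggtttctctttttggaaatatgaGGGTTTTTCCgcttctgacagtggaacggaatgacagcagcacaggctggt
Il18bp, chr7:102018233-102018482, minus strand: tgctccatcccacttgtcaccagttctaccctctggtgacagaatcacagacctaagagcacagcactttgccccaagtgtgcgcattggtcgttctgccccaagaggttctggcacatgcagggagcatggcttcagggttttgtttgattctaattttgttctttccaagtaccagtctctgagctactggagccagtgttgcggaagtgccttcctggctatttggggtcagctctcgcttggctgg
Il1a and Il1b both held TATAAA close to the start, from 32 to 27 bases before it in Il1a and from 31 to 26 in Il1b. Il1a also held GAGGAAG, the core bound by the myeloid factor PU.1, from 41 to 35 bases before the start, and the AP-1 letters TGAGTCA on the other strand from 12 to 6. The Il1rn window held GGGTTTTTCC, a match to the NF-kB motif searched (any base allowed at the fourth and the fifth position), from 51 to 42 bases before the start. Il1rn has 3 windows in the reference table, and the one shown was chosen after the search because it held this match. Of the others, that at chr2:24336610-24336859 held TGAGTCA from 141 to 135 bases before its start, and that at chr2:24345041-24345290, which overlaps the one shown, held no match. The Il18 window held TATAAA on the other strand from 175 to 170 bases before the start, and the Il18bp window held no match. Both strands were searched in all 15 windows of the members. TATAAA was in 5 of them (12.368% of all 32851 windows in the reference table), TGAGTCA in 2 (4.463%), GAGGAAG in 1 (10.612%), that NF-kB motif in 1 (1.412%) and TTCNNNGAA, the GAS element of STAT factors, in 1 (7.02%), which was that of Il1r2. GGGACTTT, another NF-kB form that can overlap the first (1.205% of all windows), the interferon-stimulated response element (2.977%), and TTGCGCAA, a C/EBP site (0.164%), were in none of the 15. Windows of one gene can overlap, and a match describes letters, not binding.

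All 10 members passed the filter on low counts. Of these, Il1a, Il1b, Il18, Il1rn and Il18bp were called higher in DOX and none was called lower (edgeR quasi-likelihood test, Benjamini-Hochberg adjusted over 14439 genes). Of all genes tested, 4.38% were called higher and 2.04% lower, 6.41% in either direction. The members' median log2 fold change was 0.996, against -0.01 over all genes tested. No overlap between PBS and DOX libraries was found for 7 members, 6 of them higher in DOX and 1 lower, where 16.9% of all genes did not overlap with DOX higher and 17.7% with DOX lower. By library totals alone, without TMM factors, the median of all genes shifted to -0.14, and the calls over all genes split into 611 higher and 730 lower in place of 632 and 294. The same 5 members were called higher at that scaling.

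**Figure D1:**
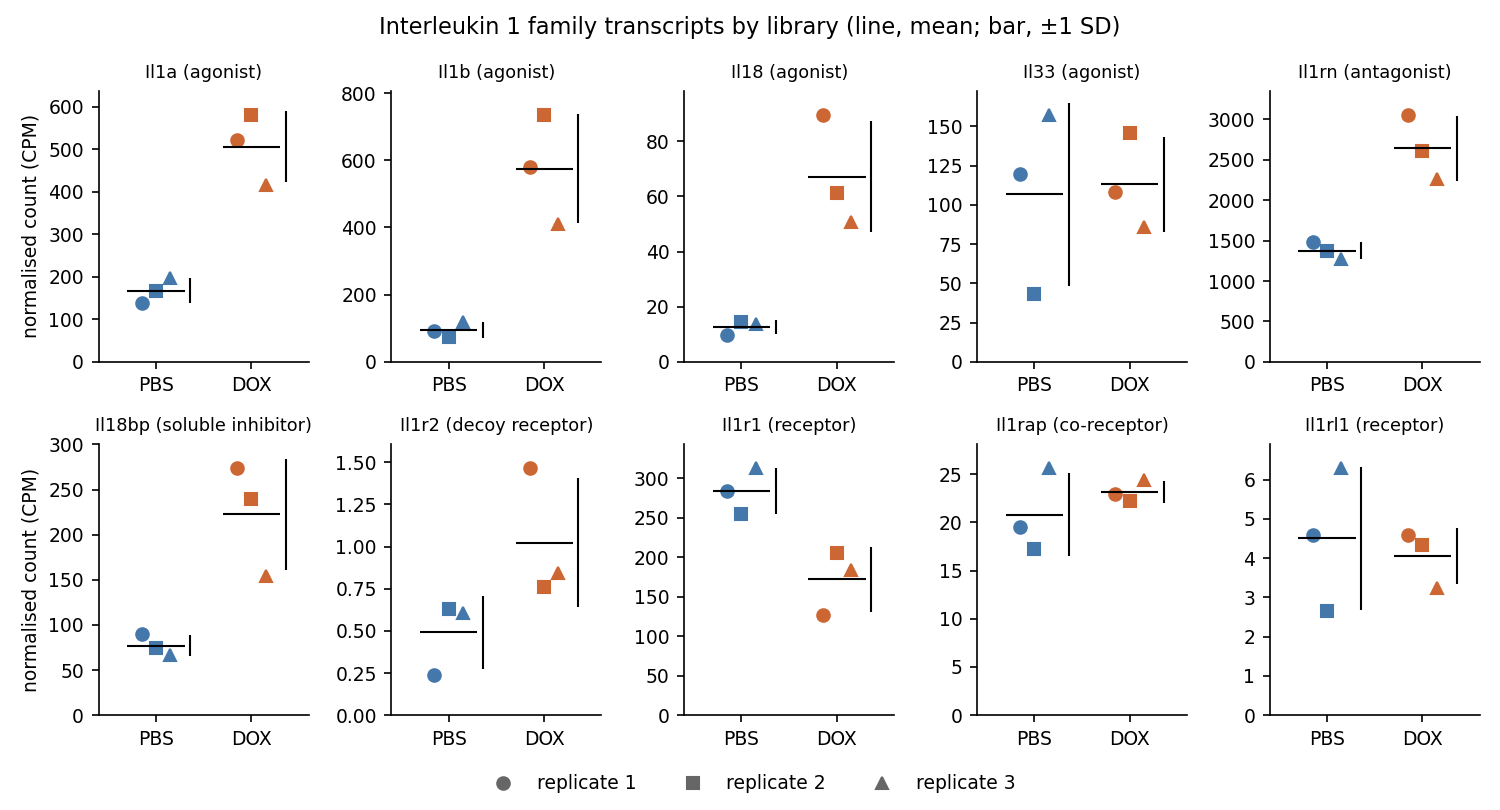
Normalised counts (CPM) of the 10 members, 1 point per library, with blue for PBS, orange for DOX, a marker shape for each replicate number, a horizontal line for the group mean and a vertical bar for 1 SD either side. The DOX points of Il1a, Il1b, Il18, Il1rn, Il18bp and Il1r2 lie above all PBS points, those of Il1r1 lie below, and those of Il33, Il1rap and Il1rl1 overlap with PBS.

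Il1b, which encodes the secreted agonist interleukin 1 beta, had the highest fold change of the family. PBS replicates 1, 2 and 3 held 91.3, 74.7 and 119 CPM, and DOX replicates 1, 2 and 3 held 579, 734 and 412 CPM. The lowest DOX library was thus well above the highest PBS library. The log2 fold change was 2.60 (SE 0.26, edgeR adjusted p = 0.0200), a 6.04-fold rise. Il18, which encodes a cytokine that acts on T and NK cells, held 9.76, 14.5 and 13.8 CPM in PBS and 89.5, 61.3 and 50.8 CPM in DOX. Each DOX library exceeded each PBS library, and the rise was 5.30-fold (log2 fold change 2.41, SE 0.25, edgeR adjusted p = 0.0200). Il1a, which encodes a cytokine that is active without processing, held 139, 166 and 198 CPM in PBS and 522, 580.1 and 417 CPM in DOX. The groups were again apart, with a 3.02-fold rise (log2 fold change 1.59, SE 0.18, edgeR adjusted p = 0.0200).

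Il33, the nuclear alarmin of the family, did not follow the other agonists. It held 119.7, 43.2 and 157 CPM in PBS and 108, 146 and 85.7 CPM in DOX, so the PBS libraries enclosed the DOX libraries. The log2 fold change was 0.08 (95% interval -0.95 to 1.11, edgeR adjusted p = 0.924), -0.048 by library totals alone and -0.29 without PBS replicate 2. PBS varied more than DOX, with a coefficient of variation of 54.5% against 26.8%. The 18 stellate and fibroblast markers also varied most within PBS, summing to 1310 (replicate 1), 1184 (replicate 2) and 2724 CPM (replicate 3), and to 1876, 2049 and 1354 CPM in DOX. Both Il33 and that sum were lowest in PBS replicate 2 and highest in PBS replicate 3. None of the 18 stellate and fibroblast markers was called, with a median log2 fold change of -0.13.

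Il1rn, which encodes the interleukin 1 receptor antagonist, was the most abundant member in every library. It held 1485, 1374 and 1270.1 CPM in PBS and 3051, 2613 and 2257 CPM in DOX. All DOX libraries exceeded all PBS libraries, and the rise was 1.92-fold (log2 fold change 0.94, SE 0.15, edgeR adjusted p = 0.0272). By mean CPM it ranked 24 among the 14439 genes tested. Il18bp, the soluble inhibitor of interleukin 18, held 89.6, 74.6 and 66.8 CPM in PBS and 273, 239 and 155 CPM in DOX. It rose 2.89-fold with no overlap (log2 fold change 1.53, SE 0.22, edgeR adjusted p = 0.0240). Il1r2, the decoy receptor, was near the limit of this depth, with counts of 9, 24 and 24 in PBS and 50, 27 and 31 in DOX. These counts correspond to 0.491 ± 0.219 (PBS) and 1.02 ± 0.383 CPM (DOX), where 3 counts are worth 0.0758 to 0.0878 CPM. Its log2 fold change of 1.05 did not pass (95% interval -0.068 to 2.17, edgeR adjusted p = 0.197), although the groups did not overlap.

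Il1r1, the signalling receptor of both interleukin 1 cytokines, was the member with lower values in every DOX library. It held 284, 254 and 312 CPM in PBS and 126, 205 and 184 CPM in DOX. The log2 fold change was -0.72 (SE 0.19, 95% interval -1.16 to -0.29) and did not pass after adjustment (edgeR adjusted p = 0.0625). DESeq2 called it lower (adjusted p = 0.00636; 7.46% of the genes DESeq2 tested were called lower), as did edgeR by library totals alone (log2 fold change -0.84, adjusted p = 0.0432). Of 14 endothelial markers, 11 had a negative log2 fold change and 1, Tek, was called lower (2.04% of all genes). Among these markers, 6 did not overlap with DOX lower and 1 with DOX higher (17.7% and 16.9% of all genes). The 14 markers summed to 6577 to 8030.4 CPM in PBS and 5740.2 to 6887 CPM in DOX, and none was at 0 in any library. For every 100 CPM of that sum there were 4.33, 3.23 and 3.89 CPM of Il1r1 in PBS and 1.84, 2.98 and 3.202 in DOX, so the groups did not overlap on this scale either, by a small margin.

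Il1rap, the accessory chain shared by the receptors of interleukin 1 and interleukin 33, held 19.5, 17.3 and 25.6 CPM in PBS and 22.9, 22.2 and 24.4 CPM in DOX. DOX lay within the range of PBS, and the log2 fold change was 0.16 (95% interval -0.22 to 0.53, edgeR adjusted p = 0.556). Il1rl1, the receptor of interleukin 33, held 4.59, 2.64 and 6.29 CPM in PBS and 4.59, 4.34 and 3.25 CPM in DOX. Its log2 fold change was -0.15 (95% interval -0.94 to 0.64, edgeR adjusted p = 0.805) and 0.17 without PBS replicate 3, and like Il33 it was lowest in PBS replicate 2 and highest in PBS replicate 3. A gene count does not separate membrane from soluble forms of Il1rl1, Il1rap or Il1r2, nor secreted from intracellular forms of Il1rn. The intervals of Il1rap and Il1rl1 exclude a change of 2-fold, while those of Il33 and Il1r2 do not.

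**Figure D2:**
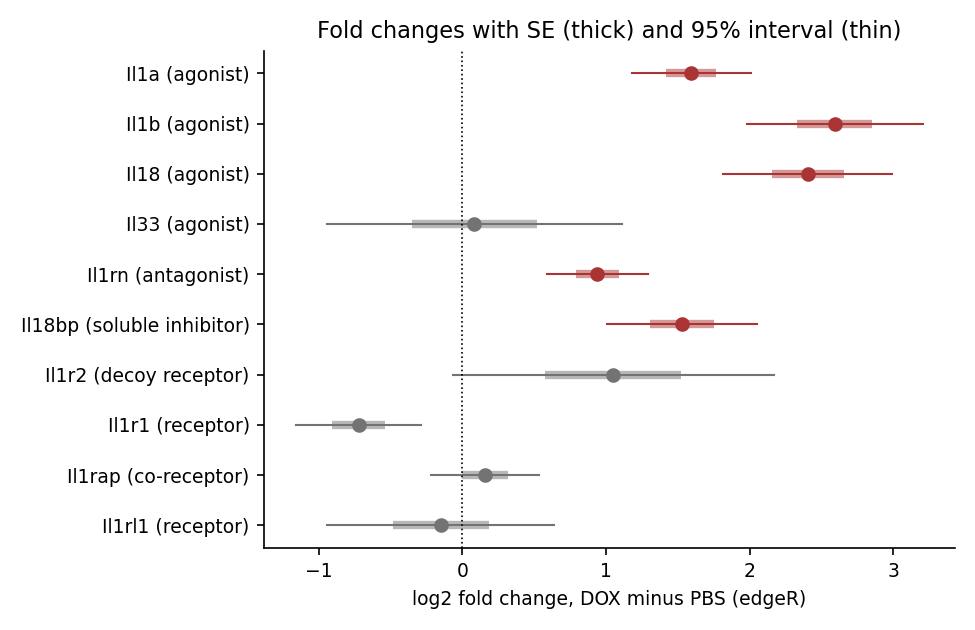
Log2 fold change of DOX minus PBS for each member (point), with its SE (thick bar) and 95% interval (thin bar), in red where the adjusted p passed 0.05 and in grey otherwise. The 5 called members lie between 0.94 and 2.60, and Il1r1 lies below 0 at -0.72 without a call.

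The calls depended on single libraries. Without PBS replicate 2 or PBS replicate 3 no gene of the whole table passed. The lowest edgeR adjusted p was then 0.0663 and 0.0634, with 3294 and 3092 genes at an unadjusted p under 0.05, and DESeq2 and limma-voom were not run on these subsets. The 5 called members had log2 fold changes of 0.94 to 2.51 without PBS replicate 2 and 0.88 to 2.79 without PBS replicate 3. Without DOX replicate 1 the calls of Il1rn and Il18bp were lost (edgeR adjusted p = 0.0668 and 0.0623), and without DOX replicate 2 that of Il1rn (edgeR adjusted p = 0.0510). Il1a, Il1b and Il18 were called in each of the other 4 subsets.

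Levels of different members were compared per kilobase, as FPKM, with the gene lengths the authors used. These lengths, 1 per gene, ran from 1888 bases for Il1b to 13345 for Il1rap. The order of members, and how many times one exceeded another, depend on them. In PBS the order was Il1rn (512 ± 31.4 FPKM), Il1a (88.9 ± 17.1), Il1b (52.7 ± 12.9), Il1r1 (48.3 ± 5.09), Il33 (37.2 ± 20.4), Il18bp (17.4 ± 2.30), Il18 (5.12 ± 1.11), Il1rap (1.63 ± 0.351), Il1rl1 (0.631 ± 0.259) and Il1r2 (0.193 ± 0.0880). Il1b, Il1r1 and Il33 overlapped between libraries in that order, and Il33 in PBS replicate 2 (15.2 FPKM) was below Il18bp in every PBS library (15.3 to 19.9 FPKM). In DOX, Il1rn stood at 897 ± 97.7 FPKM and Il1b and Il1a followed at 289.7 ± 73.4 and 244 ± 32.0 FPKM, which overlapped with each other. Below them were Il18bp (45.8 ± 10.8 FPKM), Il33 (35.98 ± 8.79), Il1r1 (26.9 ± 6.89) and Il18 (24.6 ± 6.37), each overlapping with its neighbour. Il1rap (1.67 ± 0.155 FPKM), Il1rl1 (0.518 ± 0.0696) and Il1r2 (0.363 ± 0.125) remained at the bottom, and the last pair overlapped. Il1b thus stood beside Il1r1 in PBS and above it in each DOX library.

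Setting agonists against their antagonist within each library removes library scaling. The antagonist Il1rn exceeded Il1b 10.9, 12.4 and 7.15 times per kilobase in PBS replicates 1, 2 and 3, and 3.54, 2.40 and 3.69 times in DOX. The groups did not overlap, and the ratio of Il1b to Il1rn was 3.14-fold higher in DOX (log2 difference 1.65, exact two-sided permutation p = 0.10, higher in 3 of 3 DOX libraries). With 3 against 3 libraries that is the smallest p the test can give, so none of the 6 ratios examined could pass 0.05. Il1rn exceeded Il1a 7.52, 5.81 and 4.51 times in PBS and 4.11, 3.17 and 3.81 times in DOX. That ratio was 1.58-fold higher in DOX (log2 difference 0.66, exact permutation p = 0.10), and PBS replicate 3 was close to DOX replicate 1. Of the summed FPKM of Il1a, Il1b and Il1rn, the antagonist made up 81.7, 79.8 and 73.5% in PBS and 65.6, 57.7 and 65.2% in DOX, so it remained the larger part in every library.

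For interleukin 18 the inhibitor also exceeded the agonist in every library. Il18bp exceeded Il18 5.16, 2.89 and 2.73 times per kilobase in PBS and 1.72, 2.20 and 1.71 times in DOX. The ratio of Il18 to Il18bp was 1.85-fold higher in DOX (log2 difference 0.88, exact permutation p = 0.10), with PBS replicate 1 apart from the other PBS libraries. The signalling receptor Il1r1 exceeded the decoy Il1r2 493, 173 and 220.3 times in PBS and 37.3, 116 and 93.3 times in DOX. That ratio was lower in DOX by a log2 difference of -1.85 (exact permutation p = 0.10), and it rests on 9 to 50 counts of Il1r2 per library. Il1b exceeded Il1r2 514, 165 and 274 times in PBS and 556, 1345 and 679 times in DOX (log2 difference 1.48, exact permutation p = 0.10), again with few counts of Il1r2. Il33 exceeded Il1rl1 64.9, 40.5 and 62.1 times in PBS and 58.3, 83.4 and 65.5 times in DOX, and these overlapped (log2 difference 0.32, exact permutation p = 0.40). Adjusted over the 6 ratios, the p-values were 0.12 for the first 5 and 0.40 for the last.

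**Figure D3:**
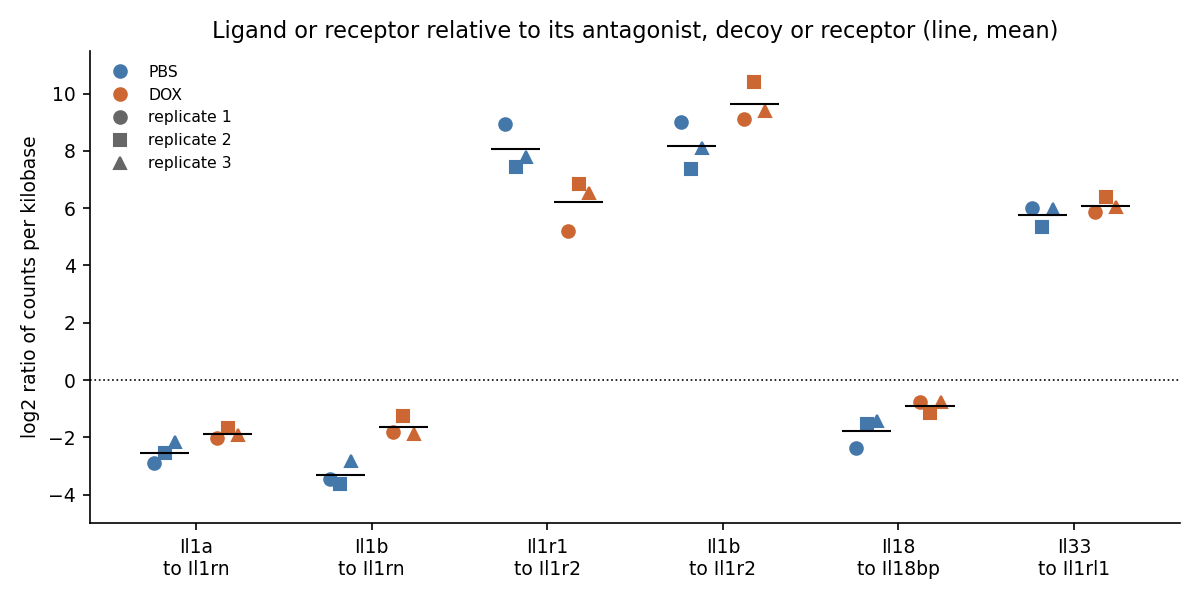
Log2 ratio of counts per kilobase for 6 pairs, 1 point per library, with blue for PBS, orange for DOX, a marker shape for each replicate number and a line for the group mean. The ratios to Il1rn and to Il18bp lie below 0 in all libraries and nearer to 0 in DOX, and the ratio of Il1r1 to Il1r2 is lower in DOX.

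The macrophage markers that moved with the groups were set beside the members. For every 100 CPM of the macrophage sum there were 1.55, 0.965 and 2.33 CPM of Il1b in PBS and 3.47, 7.88 and 3.85 CPM in DOX, which did not overlap. Il18 gave 0.165, 0.187 and 0.268 CPM in PBS and 0.537, 0.657 and 0.475 CPM in DOX, also without overlap. Il1rn gave 25.2, 17.7 and 24.7 CPM in PBS and 18.3, 28.0 and 21.1 CPM in DOX, a range that overlapped. Il1a and Il18bp overlapped on this scale too, at 2.15 to 3.86 and 0.963 to 1.52 CPM in PBS and 3.13 to 6.22 and 1.45 to 2.57 CPM in DOX. Within DOX the macrophage sum was highest in replicate 1 and lowest in replicate 2. Il18, Il18bp and Il1rn were highest in replicate 1 and lowest in replicate 3, while Il1b and Il1a were highest in replicate 2 and lowest in replicate 3. The sum weighs abundant markers most, and its part in the members' changes was not tested.

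**Figure D4:**
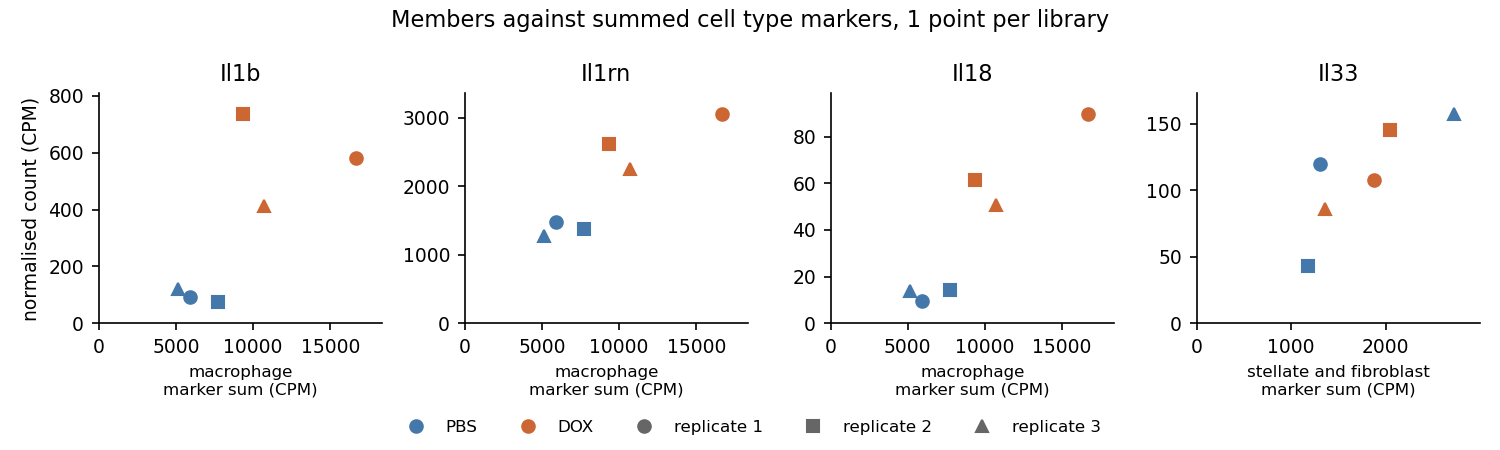
Normalised counts of Il1b, Il1rn and Il18 against the summed macrophage markers, and of Il33 against the summed stellate and fibroblast markers (both axes in CPM), 1 point per library, blue for PBS and orange for DOX, with a marker shape for each replicate number. DOX replicate 1 has the highest macrophage sum at 16675 CPM, but Il1b is highest in DOX replicate 2 at 734 CPM.

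Several members overlap other genes, and whether counting used the strand is not given in the sources used here. Il18 (chromosome 9, 50554827 to 50581840, plus strand, GENCODE vM21 on GRCm38) overlaps Bco2, a carotenoid oxygenase gene on the opposite strand, which rose from 1.124 ± 0.522 to 7.18 ± 2.94 CPM (edgeR adjusted p = 0.0277). Bco2 was thus at a lower level than Il18 in CPM and changed by a like factor. Il18 also overlaps Tex12 on the opposite strand, which had 0.035 (PBS) and 0.197 CPM (DOX) and was not tested. Il18bp (chromosome 7, 102014885 to 102018690, minus strand) overlaps Numa1, a spindle protein gene on the opposite strand, which fell from 201 ± 14.9 to 134 ± 4.37 CPM (edgeR adjusted p = 0.0247) while Il18bp rose. Il1b (chromosome 2, 129364570 to 129371139, minus strand) overlaps the antisense gene Il1bos, which had 0.026 (PBS) and 0.337 CPM (DOX) and was not tested. Il1a (chromosome 2, 129299610 to 129309972, minus strand) overlaps Gm14023, with 2.70 (PBS) and 7.21 CPM (DOX) and no call. Il1rap overlaps Gm20319, with 0.201 (PBS) and 0.354 CPM (DOX) and not tested. Il1r1 and Il1r2 overlap only genes that were not among the symbols counted. Il1rn (chromosome 2, 24336853 to 24351494), Il33 and Il1rl1 overlap no annotated gene.

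Of the other ligands and receptors of the family, 7 of 15 listed symbols were in the table and 5 were tested. Il18rap, the accessory chain of the interleukin 18 receptor, went from 1.26 ± 0.344 up to 3.83 ± 1.31 CPM (3.04-fold, edgeR adjusted p = 0.0433) and was the 1 called. Il18r1, the other chain of that receptor, named after its value was seen, went without a call at 6.61 ± 1.43 (PBS) and 14.3 ± 5.52 CPM (DOX; edgeR adjusted p = 0.0782). Most lymphocyte markers were also higher in DOX. Of 13 tested markers of T, NK and innate lymphoid cells, 11 had a positive log2 fold change, 10 did not overlap with DOX higher (16.9% of all genes) and 3 were called higher (4.38%). Their summed level overlapped, at 68.7 to 167 CPM in PBS and 82.5 to 123 CPM in DOX, and none was at 0 in any library. The sum was highest in PBS replicate 1, where Il18rap was lowest (1.01 CPM), and within DOX both were highest in replicate 3. These places of the sum, and its overlap, rest mostly on Il7r, the most abundant marker of the list. Il7r held 134, 48.8 and 40.7 CPM in PBS replicates 1, 2 and 3 and 44.7, 37.1 and 76.7 CPM in DOX. The sum therefore does not describe the other markers. The part of these markers in the change of Il18rap was not tested.

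Of 19 tested genes that process or release these cytokines, 6 were called higher and none lower, with a median log2 fold change of 0.61. Of all genes tested, 4.38% were called higher and 2.04% lower. Nlrp3, a sensor that assembles the inflammasome, went from 44.4 ± 3.22 up to 121 ± 35.9 CPM (2.72-fold, edgeR adjusted p = 0.0256). Casp1, the protease that matures interleukin 1 beta and interleukin 18, went from 87.2 ± 14.5 up to 183 ± 30.7 CPM (2.09-fold, edgeR adjusted p = 0.0258). Nlrc4, another inflammasome gene, rose 2.53-fold (edgeR adjusted p = 0.0281). Of 22 receptor-proximal signalling genes, with a median of 0.09, 3 did not overlap with DOX higher and 4 with DOX lower (16.9% and 17.7% of all genes). None of the 22 was called lower and 2 were called higher. They were Irak3, an inhibitory member of the IRAK kinase family, which went from 28.6 ± 5.26 up to 77.0 ± 19.0 CPM (2.70-fold, edgeR adjusted p = 0.0240), and Myd88, the adaptor of the receptors, which went from 97.9 ± 15.8 up to 172 ± 21.3 CPM (1.75-fold, edgeR adjusted p = 0.0310).

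Of 28 tested genes that interleukin 1 is known to induce through NF-kB, 3 were called higher (4.38% of all genes), namely Tnf, Hp and Nos2, and none lower. Of the 28, 11 had an unadjusted p under 0.05 (28.7% of all genes), and the median log2 fold change was 0.41. A positive log2 fold change was found for 22 of them. Without overlap were 9 with DOX higher and 0 with DOX lower (16.9% and 17.7% of all genes). Tnf, the gene of tumour necrosis factor, held 50.7, 70.4 and 61.6 CPM in PBS and 174, 229.9 and 158 CPM in DOX, a 3.08-fold rise (edgeR adjusted p = 0.0200). Hp, which encodes haptoglobin, rose 3.30-fold and Nos2, the inducible nitric oxide synthase gene, 3.26-fold (edgeR adjusted p = 0.0362 and 0.0467). Hp is also made by hepatocytes, whose markers were highest in DOX replicate 3. The feedback inhibitor Nfkbia and the chemokine gene Cxcl1, both named after their values were seen, had log2 fold changes of 0.28 and -0.16 (edgeR adjusted p = 0.266 and 0.738). Of 7 tested genes that interleukin 18 or interleukin 33 can induce, Ccl24, Gzmb and Ifng were called higher (4.38% of all genes) and none lower. Ccl24, an eosinophil chemokine gene, went from 5.33 ± 1.57 up to 20.1 ± 2.29 CPM (3.77-fold, edgeR adjusted p = 0.0206). Ifng, the gene of interferon gamma, rose from 0.384 ± 0.245 to 4.43 ± 3.05 CPM (edgeR adjusted p = 0.0425), and Gzmb, a granzyme gene of cytotoxic lymphocytes, 16.9-fold (edgeR adjusted p = 0.0256). Most markers of T, NK and innate lymphoid cells were also higher in DOX, and their part in the changes of Ifng and Gzmb was not tested. Counting a gene of several lists once, 15 of 80 tested genes of these 5 lists were called higher and none lower. The shares over all genes were 4.38% and 2.04%.

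**Figure D5:**
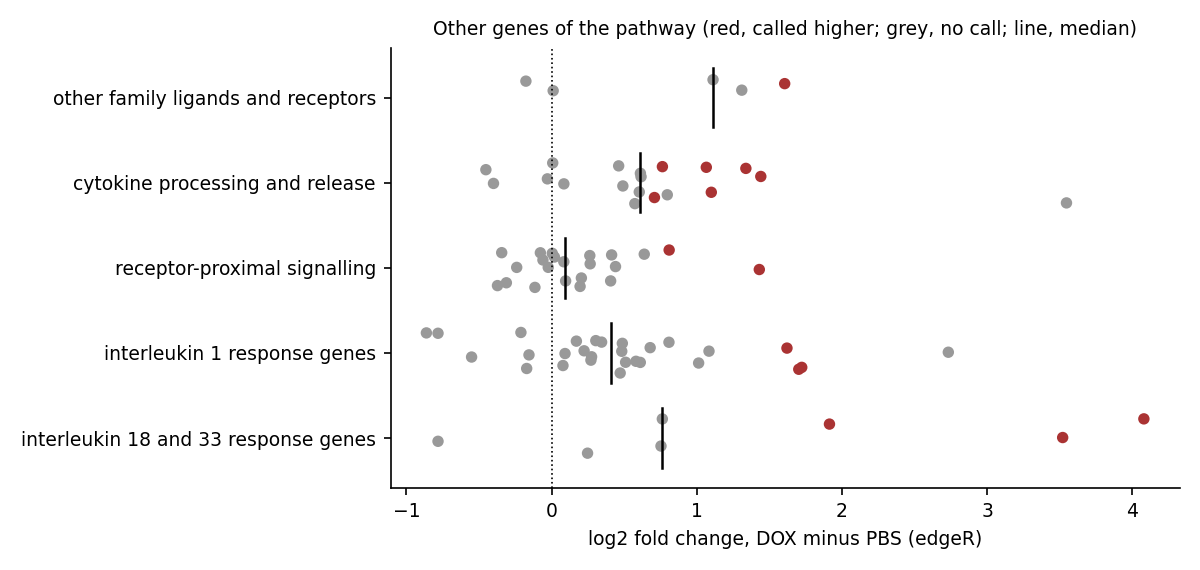
Log2 fold changes of DOX minus PBS for tested genes of the 5 pathway lists, 1 point per gene, red where called higher and grey where not, with a black line at each list's median. The medians run from 0.09 for receptor-proximal signalling to 1.11 for other family ligands and receptors, which rests on 5 genes.

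The genes whose profile over the 6 libraries was most like that of Il1b were Dusp2, Lpar1, Gbp10, Egln3 and Pglyrp2, out of 9767 genes with a mean of at least 5 CPM and no predicted or clone name. Likeness was the root mean square difference of log2 CPM after each gene was centred on its own mean, and it ran from 0.26 for Dusp2 to 0.37 for Pglyrp2. Dusp2, a phosphatase of MAP kinases, held 19.2, 12.2 and 16.8 CPM in PBS and 98.8, 86.7 and 65.0 CPM in DOX. Lpar1, a receptor of lysophosphatidic acid, stood at 2.83 (PBS) and 13.3 CPM (DOX). Gbp10, an interferon-inducible GTPase gene, stood at 3.72 and 21.8 CPM, and Egln3, a prolyl hydroxylase of hypoxia-inducible factors, at 7.09 and 32.0 CPM. Pglyrp2, a peptidoglycan-cleaving amidase gene, stood at 2.34 and 11.9 CPM. These genes share the libraries and the group difference with Il1b, so the likeness is a description.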

How the data were processed

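Per the labels' protocols, RNA was taken up with an RNeasy kit and sequenced after SMARTER library preparation. The authors deposited raw counts for 22905 gene symbols, 1 column per library, and FPKM for those symbols. The deposited FPKM were checked to be counts divided by 1 length per gene and by the library total (relative tolerance 1e-04). Aligner, counter and strand use: not given in the sources used here. The submitters' processing notes name the builds GRCm38, mm10 and hg38 without saying what each was used for. Depths are 36220282 to 37707364 counts, and the level that 3 counts are worth covers counting error only, while the 95% intervals of fold changes, from edgeR, include the spread between libraries.

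Groups and replicate numbers came from sample titles. The test was edgeR 4.0.16 (R 4.3.3; glmQLFit, glmQLFTest) with TMM scaling, a group term alone, 6 libraries, filterByExpr (minimum count 10, minimum total count 15, leaving 14439 genes) and Benjamini-Hochberg adjustment over them at 0.05, two-sided. Values after ± are SDs of 3 libraries, and SEs derive from F statistics. Chi-square statistics of counts per degree of freedom were 38.6 to 82.1 for replicate pairs, so no library repeated another. Ratios used counts plus 0.5 per kilobase and an exact permutation test. On simulated counts with 14439 genes, edgeR recovered 62 of 100 genes changed by a log2 fold change of 1 and 85 of 100 changed by 2. Of the calls, 6.96% were false. Only genes above 1 CPM were changed there, and they were fewer than the 926 genes called in the data. Both rates depend on such settings and need not hold for the data.

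Members and gene lists were chosen with earlier results of these data known. Named are all members, up to 4 called genes per pathway list by p, and the 5 profiles nearest to Il1b (log2 CPM, prior count 2). Of the 2 most abundant genes of each marker list, which the rule also took, only those beside a result are given. Outside the rule are Lrat, Tek, the markers at 0, the genes overlapping a member and those marked in the text. One gene the rule named is not reported here. Alternatives were RLE or upper-quartile scaling, library totals alone, no filter on low counts, a filter of 5 CPM in 3 libraries, DESeq2 1.42.0, limma-voom (limma 3.58.1), a robust fit, a replicate block, limma on log2(FPKM + 1), the same with 0.1 added, and leaving out each library.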

Additional observations from a re-analysis of the deposited data

How the results depend on the processing

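Il1a, Il1b, Il18, Il1rn and Il18bp were higher in DOX under all 17 alternatives, with log2 fold changes of 1.46 to 1.73, 2.38 to 2.79, 2.05 to 2.57, 0.80 to 1.04 and 1.33 to 1.73. The count of members called higher was 5 in the 11 alternatives that kept all libraries and 0 to 5 with 1 library left out. Members called lower numbered 1, Il1r1, by library totals alone and by DESeq2, and 0 elsewhere. Other pathway genes called higher numbered 15, against 24 by DESeq2 and 0 to 17 with 1 library left out, and those called lower 2 by library totals alone and 1 by DESeq2. Il33 changed sign, to -0.048 (log2) by library totals alone and between -0.29 and 0.47 with 1 library left out, as did Il1rl1, between -0.42 and 0.17. All 6 ratios kept their direction with pseudocounts of 0 and 5 and with each library left out. Over all genes, calls of 632 higher and 294 lower became 1677 and 1015 by DESeq2, 730 lower by library totals alone, 464 lower by limma on log2(FPKM + 0.1), 159 lower with the replicate block, and 0 to 722 higher and 0 to 368 lower with 1 library left out. The share of higher calls was also smaller by limma on log2(FPKM + 1), with 423 higher and 402 lower. Under the filter of 5 CPM in 3 libraries Il1r2 and Il1rl1 were not tested. The cause of these differences was not tested. Whether the replicate numbers pair the libraries is not known. Correlations of deviations were 0.095, -0.11 and 0.23 for numbers 1, 2 and 3, and not every library correlated best with its own number. With 3 libraries per group such correlations cannot exclude a pairing. With the replicate block, members called remained 5 higher and 0 lower, and other pathway genes 18 higher. Depth limits Il1r2, which rests on 9 to 50 counts per library.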
